A study of Mus musculus with 80 samples.

Results

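The 9 genes described here, Nfe2l2, Hmox1, Nqo1, Gclm, Gclc, Txnrd1, Srxn1, Slc7a11 and Sqstm1, encode the transcription factor Nrf2 and 8 genes of the antioxidant and stress response with which it is commonly grouped. They were found by gene symbol, and all 9 were listed among the 15919 genes of the microglial sort comparison and among the 16000 genes of the cell preparation comparison. Every library came from brains of Cx3cr1(Jung)-cre/Ert2+;NuTRAP+ mice of both sexes, in which tamoxifen (100 mg/kg), given at about 3 months of age, turned on a GFP-tagged ribosomal protein in Cx3cr1-expressing cells, so that microglia and the border macrophages that share the promoter were both tagged. Translating ribosome affinity purification (TRAP) with an anti-GFP antibody collected the RNA on tagged ribosomes, and the Input was the same lysate before the pull-down. Every group, the controls included, carried both transgenes and received tamoxifen.

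In the preparation comparison, 4 groups of 4 mice gave an Input and a TRAP library each. Tissue was homogenised directly in lysis buffer. Cell (-) was a suspension made by warm papain digestion, and Cell (+) was the same digestion with the transcription inhibitors actinomycin D and triptolide and the translation inhibitor anisomycin. Dounce was a suspension made mechanically in the cold. In the sort comparison, Tissue and the unsorted Cell suspension (4 mice each) were set against 4 ways of isolating microglia from the same kind of warm suspension, none of them with inhibitors: CD11b magnetic beads (autoMACS, 4 mice), cartridge cytometry for CD11b, CD45 and eGFP (Tyto, 5 mice), beads followed by the cartridge (autoMACS to Tyto, 3 mice) and conventional cytometry for the same markers (FACSAria, 4 mice). Cell (-) and Cell (+) were taken from the same 4 mice, and so were the Tissue and Cell groups of the sort comparison. The same 4 mice also gave the Tissue RNA of the preparation comparison, which therefore is not independent of the Tissue of the sort comparison. Several mice gave more than 1 sort. None of the sorted mice were those of the Tissue and Cell groups, so sorting and mice cannot be told apart. Cell (-), Cell (+) and Dounce also came from other mice than Tissue, so preparation and mice cannot be told apart there either.

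Library totals were 7129464 to 20168116 counts in the 48 libraries of the sort comparison and 2471448 to 14650287 in the 32 libraries of the preparation comparison. The shallowest were the Dounce-TRAP libraries, with 2471448 to 4724538 counts. Levels are normalised read counts (CPM, each library brought to a common size by TMM within 1 fraction of 1 comparison), and a gene was called changed at a false discovery rate (FDR) under 0.1 with a fold change above 2 in edgeR's quasi-likelihood test over all genes. The tagged cell type was checked with 5 microglial markers (Cx3cr1, P2ry12, Tmem119, Csf1r and Itgam), whose summed level in TRAP had a median of 3451 CPM in Tissue, 21216 in Dounce, 23666 in Cell (-) and 24589 in Cell (+). None of the 5 markers was at 0. Markers of untagged cells were present too, with medians in Tissue-TRAP of 4091 CPM for neurons, 939 for astrocytes and 838 for oligodendrocytes. In the same order these sums were 57 CPM, 648 and 535 in Cell (-)-TRAP, and 807, 376 and 1491 in Dounce-TRAP. The warm suspension also brought up the immediate early genes Fos and Egr1, by 7.31 and 4.76 on the log2 scale in Cell (-)-TRAP against Tissue-TRAP, and with the inhibitors they fell by 7.95 and 6.96 (FDR 5.01e-11 and 1.13e-11, edgeR).

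In resting cells the adaptor Keap1 holds Nrf2 and passes it to a ubiquitin ligase, so Nrf2 protein is short-lived. Oxidants and electrophiles modify Keap1, Nrf2 then builds up in the nucleus, pairs with a small Maf protein and binds the antioxidant response element in front of its target genes. Much of this control acts on the Nrf2 protein, which RNA libraries do not measure. The targets make glutathione (Gclc and Gclm, the 2 subunits of glutamate-cysteine ligase, with Slc7a11, the cystine importer that feeds them), reduce thioredoxin and peroxiredoxins (Txnrd1 and Srxn1), detoxify quinones (Nqo1) and break down haem (Hmox1). Sqstm1, or p62, is an autophagy receptor that can tie up Keap1. In the brain the pathway is best known from astrocytes, and Slc7a11 is also in the astrocytic marker list used with these libraries.

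The antioxidant response element is shown first, because it is the sequence that Nrf2 binds. Promoter sequence (250 bases before to 50 bases after the annotated start, RefSeq, GRCm38.p6, the same assembly as mm10) was on hand for 7 of the 9 genes, not for Hmox1 or Gclc, with 3 promoters for Txnrd1. Both strands were searched for the core TGACNNNGC, which 12.4% of all 32851 promoters of this length hold, and for the AP-1 element TGANTCA, which 7.81% hold. A single stretch of bases can match both elements, and no match found here did. The windows with a match before the start are given 5′ to 3′ along the gene, with the match in capitals. In Gclm and Txnrd1 the match lies on the opposite strand, so the core reads there as its reverse complement.
Nfe2l2, chr2:75704875-75704913, minus strand, response element core: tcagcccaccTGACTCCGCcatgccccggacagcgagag
Gclm, chr3:122245403-122245451, plus strand, response element core: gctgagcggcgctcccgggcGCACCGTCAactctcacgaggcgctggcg
Txnrd1, second promoter, chr10:82859094-82859142, plus strand, response element core: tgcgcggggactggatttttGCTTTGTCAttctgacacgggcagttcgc
Srxn1, distal AP-1 element, chr2:152105402-152105448, plus strand: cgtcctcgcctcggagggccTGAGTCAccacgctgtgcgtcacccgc
Srxn1, proximal AP-1 element, chr2:152105459-152105505, plus strand: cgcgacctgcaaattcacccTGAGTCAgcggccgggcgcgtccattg
The core began 240 bases before the start of Nfe2l2, 134 before that of Gclm and 92 before that of Txnrd1. The AP-1 elements of Srxn1 began 102 and 45 bases before its start, and Srxn1 also had a core within the transcribed part of its window. No match was found in the windows of Nqo1, Slc7a11 and Sqstm1 or in the other Txnrd1 promoters, which says only that these letters are not there.

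The levels of the 9 genes in Tissue-TRAP spanned a wide range. Per kilobase of exon, Sqstm1 was highest in Tissue-TRAP, with 173 CPM, followed by Srxn1 with 40.4, Hmox1 with 13.5, Nfe2l2 with 10.3, Gclc with 10.1 and Txnrd1 with 10.0, and then Gclm with 4.89, Nqo1 with 1.97 and Slc7a11 with 1.71. In Cell (-)-TRAP the order was Sqstm1 (129 CPM per kilobase), Nfe2l2 (76.6), Hmox1 (60.9), Gclc (21.2), Txnrd1 (10.2), Gclm (4.26), Srxn1 (2.78), Slc7a11 (1.25) and Nqo1 (0.778). These levels assume even coverage of the exons, which poly(A) libraries do not guarantee. The study reported coverage more biased toward the transcript end in Tissue-TRAP and Dounce-TRAP than in Cell (-)-TRAP and Cell (+)-TRAP. Coverage thus differed between the groups whose orders are given here.

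The first comparison set the TRAP libraries of a warm cell suspension against those of Tissue. Tissue-TRAP was not RNA of tagged cells alone, with a median neuronal marker sum of 4091 CPM beside a microglial sum of 3451. The part of this difference in purity in the changes below was not tested. In Cell (-)-TRAP, Nfe2l2, Hmox1 and Gclc were higher than in Tissue-TRAP, Srxn1 and Nqo1 were lower, and Gclm, Txnrd1, Slc7a11 and Sqstm1 did not pass both thresholds. Thus 3 of 9 were called higher and 2 of 9 lower, where 22.3% of the 14723 genes tested were called higher and 30.8% lower. The median log2 fold change was -0.20 over the 9 genes and -0.13 over all genes. The shares of the 9 were therefore close to those of all genes, and the group did not move in 1 direction.

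**Figure D1:**
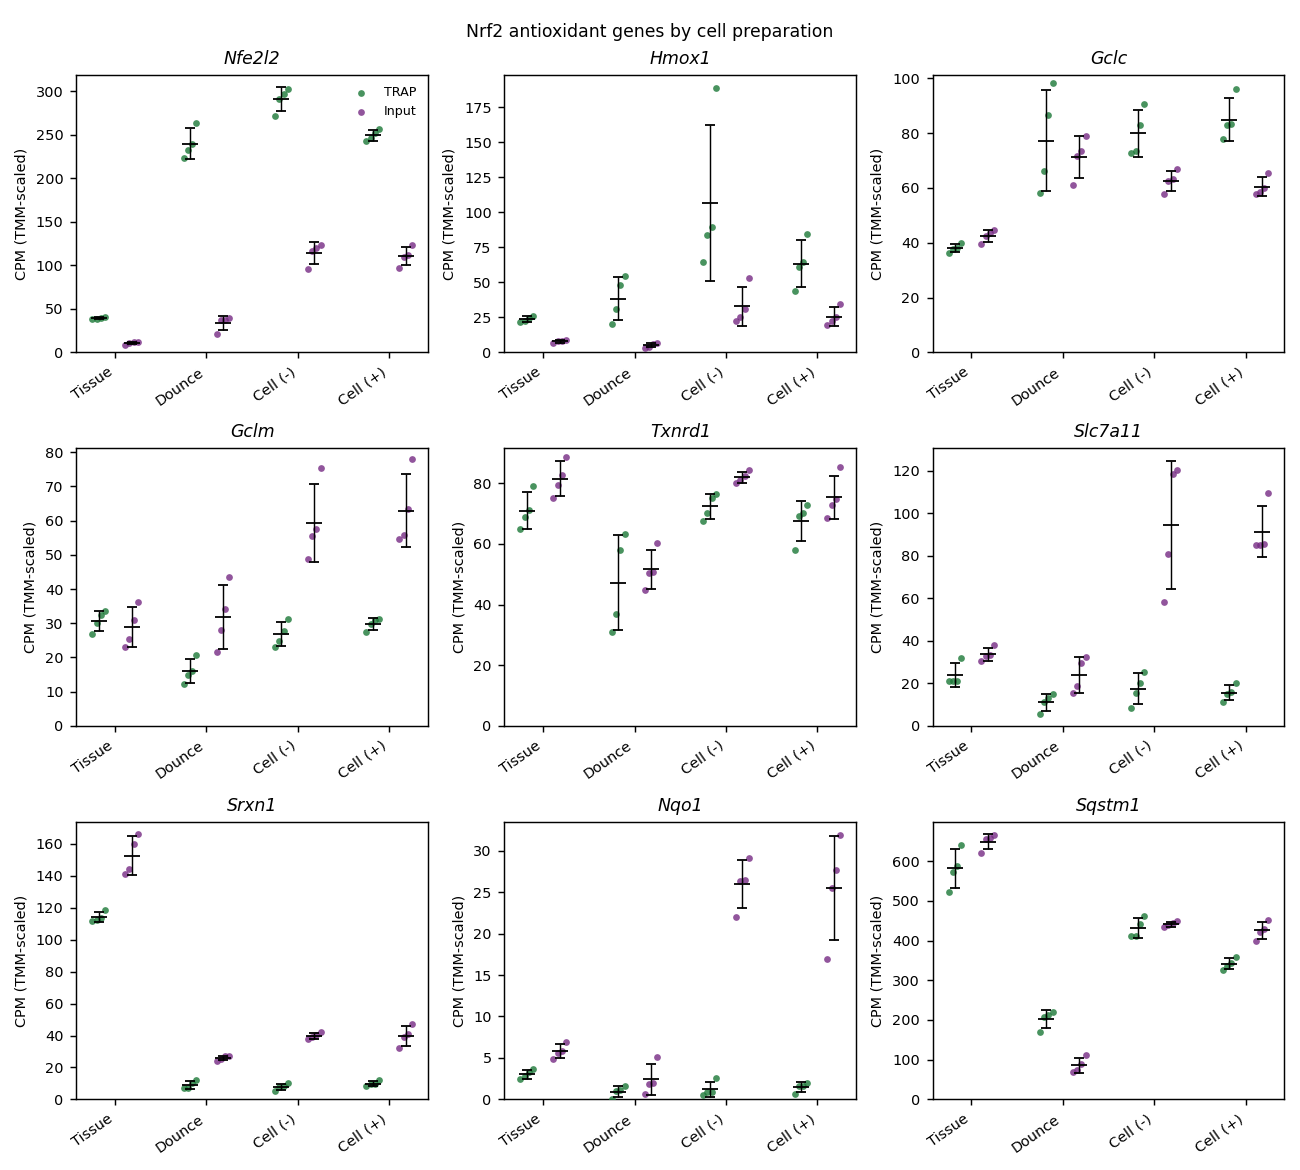
Level of each gene in TMM-scaled CPM (linear axis from 0) in the 4 preparations, with TRAP libraries in green and Input libraries in purple. Each point is 1 mouse, and bars give the mean and SD of 4 mice. In TRAP, Nfe2l2 stood at 38 to 40.6 CPM in Tissue and at 223 to 303 CPM in every suspension, while Srxn1 stood at 112 to 119 CPM in Tissue and at 5.52 to 12.0 CPM in the suspensions.

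Nfe2l2 (chr2:75675519-75704641, minus strand) had the largest rise of the 9 genes. In Tissue-TRAP it stood at 38.1, 39, 40.6 and 38 CPM, and in Cell (-)-TRAP at 271, 291, 297 and 303 CPM. The groups were far apart, with a log2 fold change of 2.90 ± 0.08 (SE), or 7.47-fold, and an FDR of 1.76e-14 (edgeR). The summed microglial markers moved with it, from a median of 3451 to one of 23666 CPM. Set against those markers in the same library, Nfe2l2 had 11.6 ± 0.858 counts per 1000 microglial marker counts in Tissue-TRAP and 12.2 ± 0.668 in Cell (-)-TRAP (SD, n = 4), so this ratio changed much less than the CPM. In bulk libraries more tagged cells and more RNA per cell cannot be told apart.

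Sqstm1 (chr11:50200152-50210790, minus strand), the autophagy receptor, stood at 641, 574, 589 and 523 CPM in Tissue-TRAP and at 412, 412, 441 and 462 CPM in Cell (-)-TRAP. All Cell (-) libraries lay under all Tissue libraries, but the log2 fold change of -0.43 ± 0.09 (FDR 0.000295, edgeR) was short of the fold threshold. Per 1000 microglial marker counts Sqstm1 went from 173 ± 17 in Tissue-TRAP to 18.1 ± 1.55 in Cell (-)-TRAP (SD, n = 4). The summed neuronal markers in TRAP had a median of 4091 CPM in Tissue and 57 CPM in Cell (-), and their part in the Sqstm1 level was not tested.

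Of the glutathione genes, only Gclc passed. Gclc (chr9:77754535-77794489, plus strand), the catalytic subunit of glutamate-cysteine ligase, stood at 36.2, 39.97, 37.9 and 37.9 CPM in Tissue-TRAP and at 73.4, 90.7, 82.9 and 72.6 CPM in Cell (-)-TRAP. The groups did not overlap, and the log2 fold change was 1.07 ± 0.14 (FDR 1.42e-06, edgeR). It fell to 0.87, under the fold threshold, when genes with fewer than 10 counts in any library were left out. Gclc had 11.3 ± 1.23 counts per 1000 microglial marker counts in Tissue-TRAP and 3.34 ± 0.192 in Cell (-)-TRAP (SD, n = 4). In Cell (+)-TRAP and Dounce-TRAP this ratio was 3.47 ± 0.294 and 3.95 ± 1.24. The ratio of Gclc was thus lower in the suspensions while its CPM was higher, and the ratio was not tested. Gclm (chr3:122245557-122267215, plus strand), the modifier subunit of the same enzyme, stood at 27.0 to 33.5 CPM in Tissue-TRAP and at 23.2 to 31.3 CPM in Cell (-)-TRAP, and the groups overlapped (log2 fold change -0.20 ± 0.15). Slc7a11 (chr3:50364936-50443613, minus strand) stood at 21, 21, 21.1 and 32.1 CPM in Tissue-TRAP and at 25.4, 20.3, 15.6 and 8.33 CPM in Cell (-)-TRAP (log2 fold change -0.45 ± 0.30, FDR 0.179, edgeR).

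The genes of thioredoxin and peroxiredoxin repair parted. Srxn1 (chr2:152105524-152111376, plus strand), sulfiredoxin, which rescues over-oxidised peroxiredoxins, stood at 112, 113, 112 and 119 CPM in Tissue-TRAP and at 8.15, 7.67, 5.52 and 10.1 CPM in Cell (-)-TRAP. Every Cell (-) library was far below every Tissue library, and the log2 fold change was -3.86 ± 0.19 (FDR 2.13e-12, edgeR), the largest change among the 9 genes in either direction. Txnrd1 (chr10:82833951-82897724, plus strand), the cytosolic thioredoxin reductase, stood at 64.9 to 79.1 CPM in Tissue-TRAP and 67.7 to 76.3 CPM in Cell (-)-TRAP, with overlapping groups and a log2 fold change of 0.03 ± 0.16. The neuronal marker sum, which fell from 4091 to 57 CPM, moved with Srxn1. Its part in the fall of Srxn1 was not tested.

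Hmox1 (chr8:75093618-75100593, plus strand), the inducible haem oxygenase, stood at 26.1, 21.8, 22.1 and 24.5 CPM in Tissue-TRAP and at 83.6, 64.2, 89.6 and 189 CPM in Cell (-)-TRAP. The highest value came from mouse 1362, and every Cell (-) library was above every Tissue library. The log2 fold change was 2.17 ± 0.31, or 4.50-fold (FDR 4.35e-06, edgeR), and over the alternatives tried, the library of that mouse left out among them, it ranged from 1.74 to 2.35. Per 1000 microglial marker counts Hmox1 had 6.28 to 7.53 counts in Tissue-TRAP and 2.5 to 8.09 in Cell (-)-TRAP, with medians of 7.16 and 3.73, so its median against those markers was lower in Cell (-). This ratio was not tested. The summed border macrophage markers had medians of 169.9 and 853 CPM, and endothelial markers of 177 and 643 CPM, in Tissue-TRAP and Cell (-)-TRAP, and the part of these cells in the Hmox1 level was not tested.

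Nqo1 (chr8:107388225-107403205, minus strand), the quinone reductase, had the lowest CPM of the 9 in Tissue-TRAP and in Cell (-)-TRAP. It stood at 3.27, 2.83, 2.43 and 3.69 CPM in Tissue-TRAP (24 to 41 counts per library) and at 2.55, 0.870, 0.837 and 0.577 CPM in Cell (-)-TRAP (7 to 36 counts). The groups overlapped through mouse 156, and the log2 fold change of -1.32 ± 0.54 carried an FDR of 0.0347 (edgeR).

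**Figure D2:**
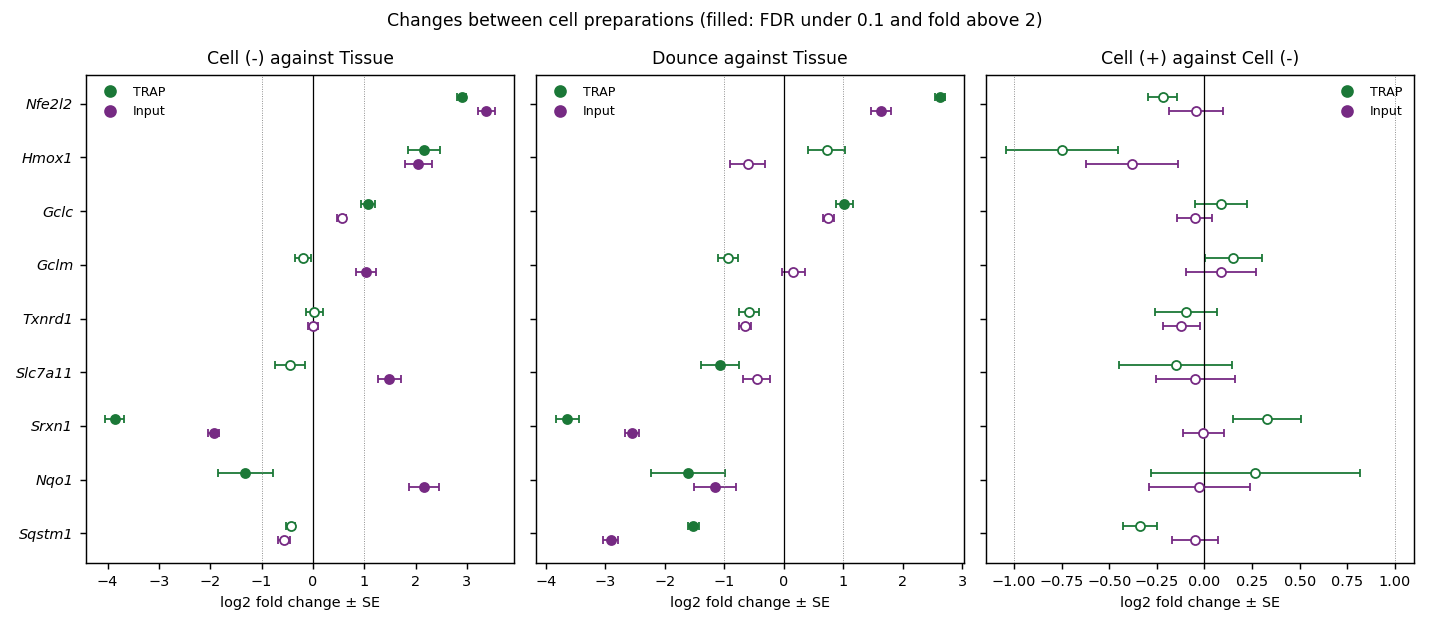
log2 fold change with its SE (edgeR) for each gene between preparations, in TRAP (green) and Input (purple). Filled points passed an FDR under 0.1 with a fold above 2, and dotted lines mark that fold. In Cell (+) against Cell (-), where the axis is narrower, no point is filled. Slc7a11 and Nqo1 rose in Cell (-)-Input and not in Cell (-)-TRAP.

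The inhibitors were added to ask which changes arise during the warm digestion. None of the 9 genes was called between Cell (+)-TRAP and Cell (-)-TRAP by edgeR, and none by DESeq2, where 0.638% of all genes were called in either direction by edgeR. At an unadjusted p under 0.05, 3 of the 9 genes were lower with inhibitors, Nfe2l2, Hmox1 and Sqstm1, and 8.92% of all genes passed that p in either direction. Nfe2l2 stood at 246, 257, 243 and 252 CPM in Cell (+)-TRAP against 271, 291, 297 and 303 CPM in the same mice without inhibitors. It was lower in 4 of 4 mice, with a log2 difference of -0.22 ± 0.08 (FDR 0.263, edgeR). With mouse as a block the difference was -0.20 with an FDR of 0.0278, under the fold threshold. Nfe2l2 in Cell (+)-TRAP was 6.41-fold above Tissue-TRAP in CPM. Nfe2l2 had 10.2 ± 0.308 counts per 1000 microglial marker counts in Cell (+)-TRAP and 11.6 ± 0.858 in Tissue-TRAP (SD, n = 4). This ratio was not tested.

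Hmox1 stood at 60.6, 64.2, 43.8 and 84.8 CPM in Cell (+)-TRAP, lower in 3 of 4 mice and level in mouse 157. Mouse 1362 was highest with and without inhibitors. The log2 difference was -0.75 ± 0.29 (FDR 0.374, edgeR), and with mouse as a block -0.66 with an FDR of 0.0103. Hmox1 in Cell (+)-TRAP was 2.68-fold above Tissue-TRAP in CPM (FDR 0.000403, edgeR), and no Cell (+) library overlapped Tissue. Hmox1 had 2.59 ± 0.689 counts per 1000 microglial marker counts in Cell (+)-TRAP and 7.03 ± 0.529 in Tissue-TRAP (SD, n = 4). This ratio was thus lower in Cell (+) than in Tissue, and it was not tested. Over the alternatives the difference between Cell (+) and Cell (-) ranged from -0.93 to -0.32, and the smallest was the value without the Cell (-) library of mouse 1362.

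Sqstm1 stood at 360, 344, 327 and 336 CPM in Cell (+)-TRAP, below all Cell (-) libraries and lower in 4 of 4 mice. The log2 difference was -0.34 ± 0.09 (FDR 0.0755, edgeR), and with mouse as a block -0.32 (FDR 0.00372), in both cases under the fold threshold. The other genes differed on the log2 scale from -0.15 ± 0.30 for Slc7a11 to 0.33 ± 0.18 for Srxn1. Txnrd1 was also lower in 4 of 4 mice, by only -0.10 ± 0.16, with an FDR of 0.403 with mouse as a block (edgeR). The SE of Nqo1, 0.55, leaves a 2-fold difference in that gene hard to detect. With an SE of 0.29 for Hmox1 and 0.30 for Slc7a11, a difference near 2-fold could be missed in these genes too. Against Tissue-TRAP, 3 genes were called higher in Cell (+)-TRAP (Nfe2l2, Hmox1 and Gclc) and 2 lower (Nqo1 and Srxn1), with 21.6% of all genes called higher and 31.2% lower. Nqo1 (FDR 0.0852, edgeR) was not called in the fit of these 2 groups alone (-0.98) or in the earlier table without Dounce (-0.99). It was also not called, at -1.11 to -0.79, without replicate 1, 3 or 4 of Cell (+)-TRAP or replicate 1, 2 or 4 of Tissue-TRAP. Gclc, at 0.95, was not called with at least 10 counts in every library.

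In Input, none of the 9 genes was called between Cell (+) and Cell (-) by edgeR or DESeq2, none had an unadjusted p under 0.05, and 0.311% of all genes were called. Hmox1-Input was lower in 4 of 4 mice, at 22.4, 24.9, 19.3 and 34.8 CPM with and 24.9, 31.1, 22.7 and 53 CPM without inhibitors (log2 difference -0.38 ± 0.24, edgeR). The inhibitor difference in TRAP against that in Input was called for none of the 9 genes by edgeR or DESeq2, with none at an unadjusted p under 0.05 and 0.145% of all genes called. For Hmox1 this difference of differences was -0.38 ± 0.40 and for Sqstm1 -0.30 ± 0.15.

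**Figure D3:**
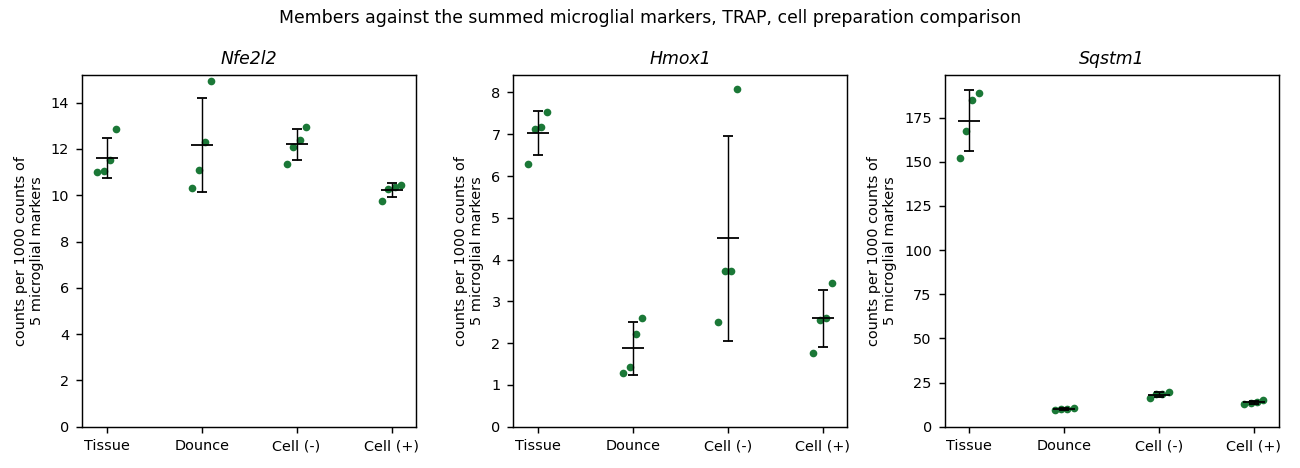
Counts of Nfe2l2, Hmox1 and Sqstm1 per 1000 counts of the 5 microglial markers in the same TRAP library of the preparation comparison. Points are mice, and bars give the mean and SD of 4 mice. Nfe2l2 lay between 9.77 and 14.95 in all 16 libraries, Hmox1 had its lowest mean in Dounce, and Sqstm1 stood at 152 to 189 in Tissue and at most 19.8 in every suspension.

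The Dounce suspension was made in the cold, without enzymes or inhibitors. In Dounce-TRAP against Tissue-TRAP, 2 genes were called higher, Nfe2l2 and Gclc, and 4 lower, Srxn1, Slc7a11, Sqstm1 and Nqo1, where 23.2% of all genes were called higher and 27.1% lower. Nfe2l2 stood at 264, 233, 240 and 223 CPM, 2.62 ± 0.08 above Tissue on the log2 scale, and its log2 difference from Cell (-)-TRAP was -0.28 ± 0.08. Gclc stood at 66.1, 58.1, 86.5 and 98.3 CPM, and its log2 fold change of 1.02 ± 0.14 lay on the fold threshold, which it missed under 4 of the other settings, including DESeq2. Sqstm1 stood at 219, 212, 170 and 208 CPM, lower than in any other preparation, by -1.52 ± 0.09 against Tissue (FDR 7.74e-11, edgeR). Slc7a11 stood at 11.2, 13, 5.59 and 14.9 CPM, all under Tissue-TRAP (log2 fold change -1.07 ± 0.32, and -0.89 and -0.88 without replicate 4 of Tissue-TRAP or replicate 3 of Dounce-TRAP), and Gclm at 12.4 to 20.8 CPM, also all under Tissue-TRAP (log2 fold change -0.94 ± 0.16, short of the fold threshold, which it passed under 4 other settings, DESeq2 among them). Nqo1 had 0 to 6 counts per library and no count in mouse 181, where a count of 0 allows up to 1.12 CPM (3 counts, counting error only).

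Hmox1 and Sqstm1 were called between the cold suspension and Cell (-). Hmox1 stood at 47.7, 54.5, 20.5 and 30.7 CPM in Dounce-TRAP, overlapping Tissue-TRAP (log2 fold change 0.72 ± 0.32, FDR 0.0498, edgeR, short of the fold threshold). All 4 libraries were under all Cell (-) libraries, but their range overlapped that of the warm Cell (+)-TRAP libraries. Against Cell (-)-TRAP, Hmox1 was lower by -1.45 ± 0.31 (FDR 0.000720) and Sqstm1 by -1.09 ± 0.09 (FDR 1.94e-08, edgeR). These were 2 of 9 genes called lower, with none called higher. Of the 14723 genes tested, 8.02% were called lower, and more, 3047 genes, were called higher. The Hmox1 difference ranged from -1.67 to -1.02 over the alternatives. Sqstm1, at -0.99, missed the fold threshold when genes needed at least 10 counts in every library. Gclm (-0.75 ± 0.16, FDR 0.000893), Txnrd1 (-0.61 ± 0.17, FDR 0.00577) and Nfe2l2 (-0.28 ± 0.08, FDR 0.00579, edgeR) were also lower, under the fold threshold. Different mice gave the Dounce and Cell groups, and the Dounce-TRAP libraries had fewer counts than all others, and a whole brain went into each Dounce-Input preparation where a hemisphere served for the others, so preparation, mice, depth and RNA quality cannot be told apart there. The neuronal marker sum in TRAP was 807 CPM in Dounce against 57 CPM in Cell (-), and the endothelial marker sum 62.4 against 643 CPM. The part of these cells in the differences was not tested.

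The Input holds all cells of the preparation. From Tissue-Input to Cell (-)-Input, 5 genes were called higher, Nfe2l2, Hmox1, Nqo1, Slc7a11 and Gclm, and 1 lower, Srxn1, where 25.6% of all genes were called higher and 19.1% lower. The median log2 fold change was 1.04 over the 9 genes and 0.05 over all genes. Nqo1 stood at 4.92, 5.78, 6.95 and 5.61 CPM in Tissue-Input and at 22, 26.4, 29.1 and 26.3 CPM in Cell (-)-Input, a log2 fold change of 2.16 ± 0.29 (FDR 1.98e-06, edgeR). Slc7a11 stood at 33.3, 38.1, 30.3 and 32.7 CPM in Tissue-Input and at 118, 120, 80.7 and 58.2 CPM in Cell (-)-Input (1.49 ± 0.22). Neither group overlapped Tissue for these genes.

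Gclm-Input stood at 30.8, 36.3, 25.4 and 23 CPM in Tissue and at 75.4, 57.5, 55.5 and 48.7 CPM in Cell (-), a log2 fold change of 1.04 ± 0.19 that was 0.98, under the fold threshold, with DESeq2's size factors and 0.90 to 0.98 without replicate 1 of Cell (-)-Input or replicate 3 or 4 of Tissue-Input. Srxn1-Input fell from 141 to 166 CPM in Tissue to 37.8 to 42.5 CPM in Cell (-), by -1.94 ± 0.11. Nfe2l2-Input rose from 12.2, 10.7, 11.9 and 8.98 CPM to 95.4, 123, 117 and 120 CPM (3.38 ± 0.16), and Hmox1-Input from 6.63 to 8.94 CPM to 22.7 to 53 CPM (2.05 ± 0.26). The log2 fold changes of Gclc at 0.56 ± 0.09 and Sqstm1 at -0.56 ± 0.12 were under the fold threshold, and Txnrd1 was level at 0.01 ± 0.10. From Tissue-Input to Cell (-)-Input the summed markers went from 159.9 to 4715 CPM for microglia, from 1189 to 3790 CPM for astrocytes, from 65.7 to 1373 CPM for endothelial cells and from 5686 to 392 CPM for neurons (medians). Their part in the Input changes was not tested.

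In Dounce-Input only Nfe2l2 was called higher than in Tissue-Input, and Srxn1, Sqstm1 and Nqo1 were called lower, where 28.7% of all genes were called higher and 21.4% lower. Nfe2l2 stood at 37.5, 38.9, 21.3 and 37.1 CPM (1.63 ± 0.16). Sqstm1 stood at 112, 90.2, 68.1 and 74.1 CPM against 620 to 665 CPM in Tissue-Input, and fell by 2.91 on the log2 scale (SE 0.13, FDR 4.30e-13, edgeR). Nqo1 stood at 1.96, 5.12, 1.92 and 0.683 CPM, overlapping Tissue-Input in 1 mouse (-1.16 ± 0.35). It was not called, at -0.90, without replicate 4 of Dounce-Input. The astrocyte sum of Dounce-Input had a median of 832 CPM. The study reported lower RNA integrity and a much lower RNA yield in Dounce-Input than in Tissue-Input. Different mice gave these groups, so preparation, mice and RNA quality cannot be told apart here.

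The sort comparison held the step from Tissue to a warm suspension again, with the Cell group from other mice than Cell (-). Its Tissue samples are listed apart, but the labels do not say whether their libraries were made anew. In Cell-TRAP against Tissue-TRAP, 3 of the 9 genes were called higher, Nfe2l2 (2.77 ± 0.08), Hmox1 (2.08 ± 0.19) and Gclc (1.24 ± 0.08), and 2 lower, Srxn1 (-3.33 ± 0.19) and Nqo1 (-1.02 ± 0.56, FDR 0.0964, edgeR). The Nqo1 call was lost without any 1 of 6 libraries. Among all genes 25.1% were called higher and 29.3% lower. DESeq2's size factors moved the median of all genes in this comparison by -0.33 and the share of calls that were higher from 46.2% to 35%, and Gclc, at 0.90, was then not called, nor was it at 0.87 with at least 10 counts in every library. In Input, Nfe2l2, Hmox1, Nqo1, Gclm and Slc7a11 were called higher and Srxn1 lower, with 28.5% and 17.5% of all genes called higher and lower. Since both comparisons share the mice of the Tissue group, their values are given side by side and not as separate support.

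**Figure D4:**
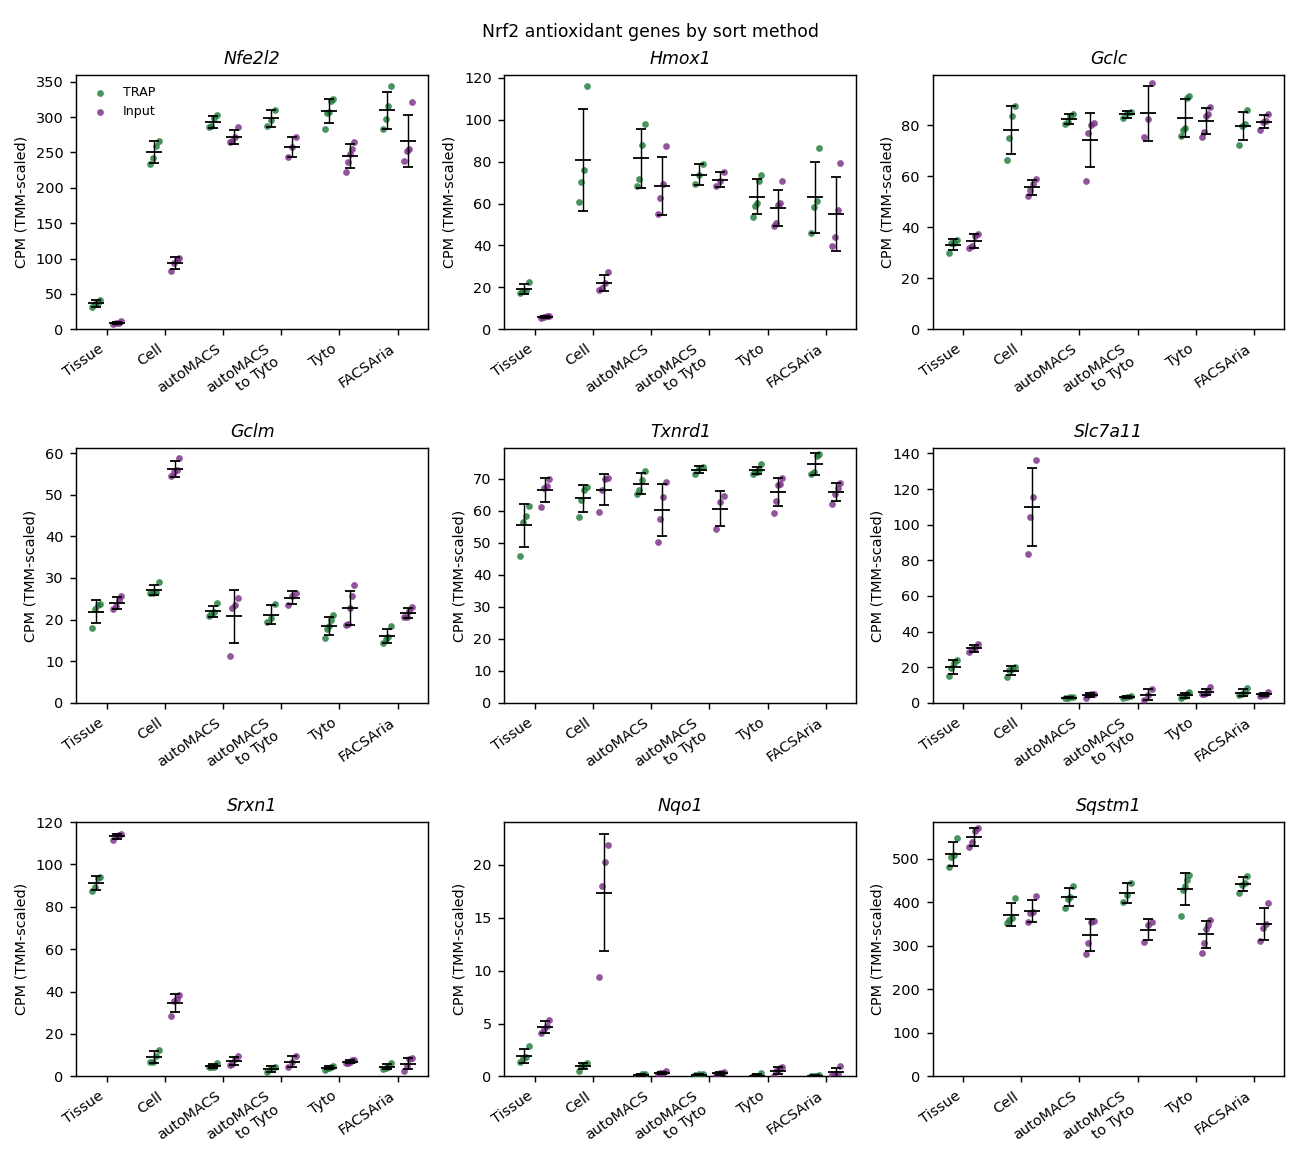
Level of each gene in TMM-scaled CPM (linear axis from 0) in Tissue, in the unsorted Cell suspension and after the 4 sorts, in TRAP (green) and Input (purple). Each point is 1 mouse, and bars give the mean and SD of 3 to 5 mice. Slc7a11 and Nqo1 were highest in Cell-Input and low after every sort in both fractions, while Nfe2l2 and Gclc stayed high in TRAP.

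Sorting asked what was left once other cells had been taken out of a suspension, here in other mice than those of the Cell group. In the Input of sorted cells against Cell-Input, Nfe2l2 and Hmox1 were called higher and Nqo1, Slc7a11, Srxn1 and Gclm lower, where 17.1% of all genes were called higher and 34.7% lower. Nfe2l2 stood at 93.1, 100, 98.4 and 82.4 CPM in Cell-Input and between 222 and 321 CPM in the 16 sorted Input libraries, 1.48 ± 0.09 higher in the mean of the 4 sorts. Hmox1 stood at 27.3, 21.9, 18.9 and 19.7 CPM in Cell-Input and between 39.6 and 87.4 CPM after sorting (1.52 ± 0.15). Slc7a11 stood at 83.8, 116, 136 and 104 CPM in Cell-Input and between 1.53 and 9.12 CPM after sorting (-4.49 ± 0.17, or 22.4-fold lower). Nqo1 stood at 21.9, 9.39, 20.3 and 18 CPM in Cell-Input and between 0.0658 and 0.979 CPM after sorting, from 1 to 11 counts per library.

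Gclm-Input stood at 54.4 to 58.8 CPM in Cell and between 11.3 and 28.2 CPM after sorting (-1.31 ± 0.12). Srxn1-Input stood at 28.2 to 38.2 CPM in Cell and between 2.57 and 9.80 CPM after sorting (-2.35 ± 0.16). Gclc at 0.53 ± 0.08, Sqstm1 at -0.19 ± 0.07 and Txnrd1 at -0.08 ± 0.07 were under the fold threshold. Over the same step the astrocyte marker sum in Input went from a median of 4492 CPM in Cell to between 189 and 229 CPM in the 4 sorts, the oligodendrocyte sum from 11264 to between 111 and 279 CPM, and the microglial sum from 3750.1 to between 21372 and 25098 CPM. Their part in these differences was not tested.

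In TRAP, where the pull-down had already enriched RNA of tagged cells, Slc7a11, Srxn1 and Nqo1 were still called lower after sorting and none higher. Of all 14953 genes, 23.6% were called lower and 125 genes higher. Slc7a11-TRAP stood at 14.4, 19, 18.5 and 20.1 CPM in Cell and between 2.46 and 8.27 CPM in the 16 sorted libraries (-2.20 ± 0.16, FDR 1.41e-11, edgeR). Srxn1-TRAP stood at 9.70, 7.01, 6.94 and 12.6 CPM in Cell and between 2.05 and 6.32 CPM after sorting (-1.12 ± 0.16). It was at -0.91, under the fold threshold, without replicate 4 of Cell-TRAP. Nqo1-TRAP stood at 0.543 to 1.28 CPM in Cell (9 to 19 counts), and 8 of the 16 sorted libraries held no Nqo1 count at all, while the others held up to 5, so no fold is given. The levels that 3 counts would give were 0.156 to 0.279 CPM in those libraries. The astrocyte sum in TRAP went from 763 CPM in Cell to between 143 and 163 CPM after the sorts, and the neuronal sum from 95.2 to between 0.982 and 1.78 CPM.

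The other genes stayed within the fold threshold after sorting, though Nfe2l2, Gclm, Txnrd1 and Sqstm1 passed the FDR threshold. Nfe2l2-TRAP stood at 233 to 266 CPM in Cell and 283 to 343 CPM after sorting (0.27 ± 0.06, FDR 0.00045, edgeR). Hmox1-TRAP stood at 60.9 to 116 CPM in Cell and 46.1 to 98.1 CPM after sorting (-0.20 ± 0.14, FDR 0.214, edgeR). Gclc moved by 0.07 ± 0.06, Txnrd1 by 0.18 ± 0.06 (FDR 0.0123), Sqstm1 by 0.20 ± 0.05 (FDR 0.00379) and Gclm by -0.49 ± 0.08 (FDR 2.1e-05, edgeR).

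The 4 sorts were compared with each other in a joint test. None of the 9 genes was called among them in TRAP or in Input by edgeR, where 4.17% of all genes were called in TRAP and 7.42% in Input. At an unadjusted p under 0.05 there were 2 of the 9 in TRAP and 0 in Input, where 34% and 27% of all genes passed. Mice 66, 67 and 73 gave both autoMACS and autoMACS to Tyto libraries, and mice 69, 945 and 991 both Tyto and FACSAria libraries, and the test and the mean of the sorts treated all of them as independent, with no fit among the sorts that kept mouse as a block. DESeq2 called none of the 9 either. In TRAP the FDR of Slc7a11 was 0.0238 and that of Gclm 0.0133, with the highest and lowest sort 0.95 and 0.46 apart on the log2 scale. Slc7a11 was lowest in autoMACS (2.46 to 3.49 CPM) and highest in FACSAria (4.27 to 8.27 CPM), and the neighbours between them overlapped. Gclm-TRAP was lowest in FACSAria (14.4 to 18.4 CPM) and highest in autoMACS (20.9 to 24 CPM). Leaving out replicate 4 of autoMACS-TRAP, or replicate 3 or 4 of FACSAria-TRAP, brought Slc7a11 past the fold threshold, at 1.01 to 1.06.

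TRAP against Input in the same sample asked how far each RNA was concentrated on tagged ribosomes. In Tissue, Nfe2l2 (2.19 ± 0.10, or 4.55-fold) and Hmox1 (1.86 ± 0.20, or 3.63-fold) were enriched and Nqo1 was depleted (-1.05 ± 0.46, FDR 0.0874, edgeR, and not called without replicate 1, 2 or 4), where 9.23% of all genes were called higher and 1.87% lower. With both fractions scaled together, Nfe2l2 stood at 37.5, 43.1, 39.7 and 32.3 CPM in Tissue-TRAP against 8.39, 7.51, 10.3 and 7.31 CPM in Tissue-Input. Hmox1 stood at 17.8 to 23.1 against 4.87 to 5.88 CPM. Neither gene overlapped between fractions. Gclc, Gclm, Txnrd1, Srxn1 and Sqstm1 lay within 0.14 of equality in Tissue, and Slc7a11 was at -0.40 ± 0.23.

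In the Cell suspension 2 genes were enriched in TRAP, Hmox1 (2.16 ± 0.19) and Nfe2l2 (1.70 ± 0.09), and 3 depleted, Nqo1 (-3.88 ± 0.51), Slc7a11 (-2.33 ± 0.24) and Srxn1 (-1.64 ± 0.21), where 16.8% of all genes were called higher and 30.9% lower. DESeq2's size factors moved the median of all genes there by -0.41 and the share of calls that were higher from 35.2% to 21%, and Gclm, at -0.77 ± 0.13 in the first scaling, was then called lower. After sorting, when both fractions come from selected cells, 1 of the 9 genes was called between them, Nqo1, as lower, with 18.8% of all genes called lower. This call rests on 0 to 5 counts per TRAP library and 1 to 11 per Input library. The other genes lay within 0.62 of equality, with Nfe2l2 at 0.30 ± 0.04 and Sqstm1 at 0.43 ± 0.04.

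**Figure D5:**
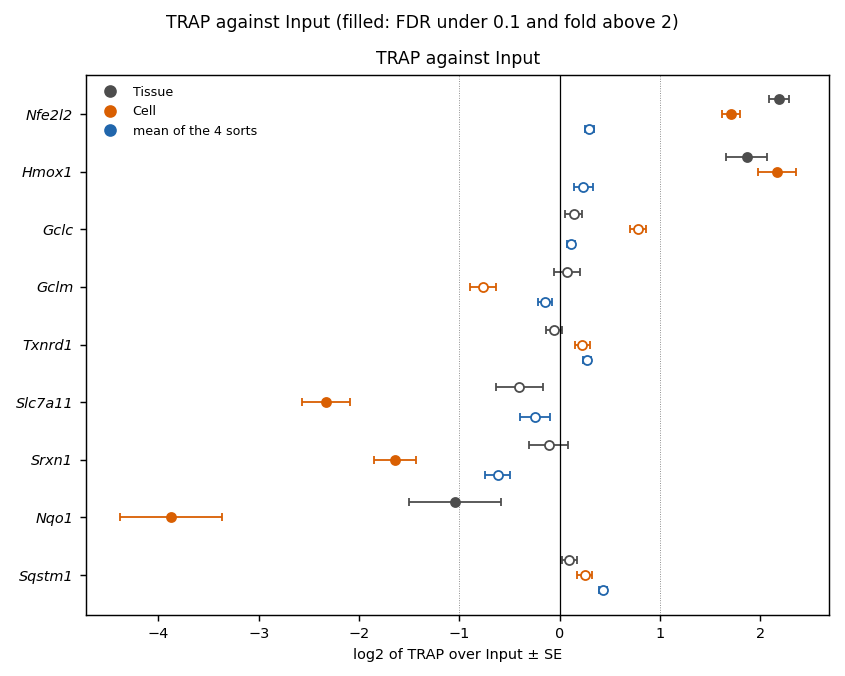
log2 of TRAP over Input with its SE (edgeR) for each gene in Tissue (grey), in the Cell suspension (orange) and in the mean of the 4 sorts (blue). Filled points passed an FDR under 0.1 with a fold above 2. Nfe2l2 and Hmox1 were enriched in Tissue and Cell and near equality after sorting, while Slc7a11 and Srxn1 were depleted in Cell. Nqo1 after sorting is not drawn because its TRAP libraries held 0 to 5 counts.

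The step from Tissue to Cell was called different between fractions for 3 of the 9 genes, in a test that was added after the values had been seen. In the same test 35.3% of all genes were called in either direction, so the share of the 9 was close to that of all genes. Nqo1 changed by -1.03 in TRAP and by 1.80 in Input, a difference of -2.83 ± 0.67 (FDR 0.000427, edgeR). Slc7a11 changed by -0.18 in TRAP and by 1.74 in Input, a difference of -1.92 ± 0.33 (FDR 4.59e-06). Srxn1 fell in both, by -3.34 and -1.80, a difference of -1.53 ± 0.29 (FDR 1.84e-05). All 3 passed with mouse as a block too. For Hmox1, which rose in both, the difference was 0.30 ± 0.27 (FDR 0.348).

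Around the 9 genes, 37 further genes of the pathway in 5 groups were counted. From Tissue-TRAP to Cell (-)-TRAP, 10 were called higher and 5 lower, where 22.3% of all genes were called higher and 30.8% lower. Transporters and other targets gave 4 of 6 higher, regulators 2 of 7, iron and haem genes 2 of 6 and NADPH enzymes 1 of 6 with 1 lower, while of the glutathione and thioredoxin enzymes 1 of 12 was higher and 4 lower. The median log2 fold change was 0.32 over the 37 and -0.13 over all genes. The genes with the largest changes were Slc40a1, the iron exporter ferroportin (3.31 ± 0.11), Bach1, a repressor that competes with Nrf2 and represses Hmox1 (2.54 ± 0.10), and the efflux pumps Abcc1 (2.18 ± 0.13) and Abcc4 (2.11 ± 0.36). Slc40a1 stood at 17.3 ± 2.40 CPM in Tissue and 172 ± 6.09 CPM in Cell (-), and Bach1 at 34.1 ± 3.21 and 198 ± 16 CPM (SD, n = 4).

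None of the 37 genes was called between Cell (+)-TRAP and Cell (-)-TRAP by edgeR, where 0.638% of all genes were called. From Cell (-)-TRAP to Dounce-TRAP, 11 of the 37 were called lower and none higher. Of all 14723 genes, 8.02% were called lower, and more, 3047 genes, were called higher. The median was -0.68 over the 37 and -0.01 over all genes. From Tissue to the suspension in Input, 15 were called higher and none lower in the preparation comparison, where 25.6% of all genes were called higher and 19.1% lower. In the sort comparison 14 were called higher and none lower, where the shares of all genes were 28.5% and 17.5%. After sorting, 8 were called lower in TRAP and none higher, a share near the 23.6% of all genes called lower. Of all 14953 genes, 125 were called higher. In Input 9 were called higher and 10 lower, where 17.1% of all genes were called higher and 34.7% lower.

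The genes with the profile most like that of Nfe2l2 over the 16 TRAP libraries of the preparation comparison, of 14079 genes compared, were Gatm, Ptprc, Fcho2, Mpeg1 and C3ar1, with Pearson r of 0.995 to 0.993. Ptprc (CD45), Mpeg1 and C3ar1 are known from myeloid cells. Those most like Hmox1 were Sh3gl1, Cnot1, Rbl2, Kif16b and Trip12, with r of 0.946 to 0.928. These correlations describe 16 libraries that fall into 4 preparations and share the contrast with Tissue.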

How the data were processed

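Brain RNA from Cx3cr1-NuTRAP mice was sequenced by the study's authors as stranded poly(A) libraries that were aligned to mm10 and quantified in Strand NGS after removal of duplicates, and they kept a gene where all samples of some group exceeded 5 reads. The raw columns they deposited hold estimated counts, since only 33.2% (sort) and 20.8% (preparation) of values are exactly whole, and were rounded. The log2 values the authors deposited (104 normalized columns) were not used. In each deposited file, 23 symbols that had turned into dates were restored.

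Genes with over 5 counts in every library of at least 1 group were tested in edgeR 4.0.16 (R 4.3.3) with TMM, separately for TRAP and Input and jointly for TRAP against Input; the SE is the log2 fold change over the root of F. Called genes had an FDR under 0.1 and a fold above 2. Alternatives were DESeq2 1.42.0, its size factors in edgeR, no filter or at least 10 counts, fits of 2 groups, the earlier table without Dounce, leaving out each replicate, and mouse as a block. The code was tested on simulated data. The members and lists were chosen with earlier results of these data known, and the fraction interaction and the ratio to microglial markers were added after seeing the values. All 9 members, the 4 genes of the wider list with the largest change among those called, and the 5 genes most correlated with Nfe2l2 and with Hmox1, on log2(CPM + 1), are named. Replicates are separate mice. A microglial marker was left out of the marker sums and is not reported here.

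Samples of the same mouse deviated together in TRAP (r 0.0510 to 0.505 between Cell (-) and Cell (+), 0.0727 to 0.197 between Tissue and Cell) and hardly in Input (r -0.0885 to 0.113 and 0.0188 to 0.0858). The pairing comes from the mouse numbers in the labels. Floors cover counting error only, while the SE and SD include variation between mice.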

Additional observations from a re-analysis of the deposited data

Results flagged for a closer look

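In 162 pairs of a gene and a group, 10 had a mouse whose level lay apart from the rest, about the 1 in 20 that chance gives. In autoMACS-Input, mouse 72 was lowest for Gclc (58.3 CPM, others 77 to 80.9) and for Gclm (11.3 CPM, others 22.9 to 25.2), and the same library had the lowest microglial marker sum of its group. Mouse 73 of that group was lowest for Slc7a11 (2.94 CPM). Slc7a11 was highest in mouse 949 of Tissue-TRAP in the preparation comparison (32.1 CPM, others 21 to 21.1) and in mouse 157 of Cell (+)-Input (109 CPM, others 85.1 to 85.5). Gclm was highest in mouse 947 of Cell-TRAP (29.0 CPM), and Nfe2l2 was lowest in mouse 181 of Dounce-Input (21.3 CPM, others 37.1 to 38.9). Nqo1 was highest in mouse 156 of Cell (-)-TRAP (2.55 CPM), in mouse 991 of FACSAria-Input (0.979 CPM, 10 counts) and in mouse 945 of Tyto-TRAP (0.289 CPM, 5 counts).

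The change from Tissue to Cell in the sort comparison differed between TRAP and Input, in a test of the interaction, by -2.83 for Nqo1, -1.92 for Slc7a11 and -1.53 for Srxn1 on the log2 scale. That test was added after the values had been seen, and 35.3% of all genes were called in it, a share close to that of the 9 genes.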

How the results depend on the processing

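Over the alternatives no member that was called reversed its direction. Apart from leaving out replicates, 780 of the values kept their direction and side of the threshold, 34 moved without a call at stake, 7 became calls and 15 ceased to be calls. Requiring at least 10 counts in every library removed Nqo1 and left 3 members called in TRAP for Cell (-) against Tissue, 3 for Cell (+) against Tissue, 1 for Dounce against Cell (-), 3 for Cell against Tissue in the sort comparison, and 0 for TRAP against Input in the mean of the 4 sorts. With mouse as a replicate block the last count was also 0, with Nqo1 not tested, and the block changed no other count of called members. The blocked fits hold only the groups compared and so test fewer genes. Between Cell (+)-TRAP and Cell (-)-TRAP the calls among all genes were 94 with all groups in the fit, 116 with these 2 groups alone and 150 with these 2 groups and the block. They were 23 without and 48 with the block and the smaller fit for the inhibitor effect in TRAP against Input (41 with DESeq2), and 2994 and 1364 for TRAP against Input after sorting, where the block and the smaller fit were not separated. The filter on 10 counts tests fewer genes and lowered the calls among all genes by over 1.5 times in most comparisons, for example from 3651 to 440 for the sorts against Cell in TRAP, from 8162 to 3079 in Input and from 7826 to 4770 for Cell (-) against Tissue in TRAP. DESeq2's likelihood ratio test called 1148 genes among the sorts in TRAP where edgeR called 624, and 1917 in Input where edgeR called 1169. DESeq2's size factors moved the median of all genes by -0.21 for the sorts against Cell in Input, and the share of calls that were higher from 33.1% to 27%. Leaving out 1 replicate at a time, the members called among the 4 sorts in TRAP ranged from 0 to 1. Nqo1 lost its call in Cell-TRAP against Tissue-TRAP without replicate 1, 2 or 3 of Tissue-TRAP or 2, 3 or 4 of Cell-TRAP (FDR 0.123 to 0.273), and in Cell (+)-TRAP without replicate 1, 2 or 4 of Tissue-TRAP or 1, 3 or 4 of Cell (+)-TRAP (FDR 0.115 to 0.216, edgeR). Gclc in Dounce-TRAP against Tissue-TRAP lay at 0.87 to 0.99 without replicate 1 of Tissue-TRAP or replicate 3 or 4 of Dounce-TRAP. Depth limits Nqo1 in TRAP and the Dounce-TRAP group.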
